A study of Mus musculus with 4 samples.

Results

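Hemoglobin and red cell genes were followed through the left ventricle of young and aged mice after sham treatment or ischemia and reperfusion (I/R). The genes of the group were picked by gene symbol, with earlier results of these data known. The group held 7 of the 32285 genes in the expression table. They were the adult alpha globins Hba-a1 and Hba-a2, the adult beta globins Hbb-bs and Hbb-bt, and Alas2, Bpgm and Mkrn1. All 7 were detected in all 4 libraries. The mice were male wild-type C57BL/6J, aged 3 to 5 months (young) or 24 to 26 months (aged). I/R was 45 min of ischemia by surgery on a coronary artery and 24 h of reperfusion, and the sham hearts are described as healthy and unaltered in the sample labels and as sham-operated in the study's methods. The whole left ventricle was dissociated and captured on a droplet platform that tags each RNA molecule at its 3′ end with a unique molecular identifier (UMI) and a cell barcode. The labels call the molecule nuclear RNA, whereas the methods describe single cells.

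Each condition was 1 library, and the number of mice behind it is not given, so no difference between conditions could be tested against the spread between animals. Where 4 values follow each other without names, they are those of young sham and young I/R, then aged sham and aged I/R. All intervals are exact 95% intervals for counting error only, and "lower" or "higher" compares libraries, not conditions. Those of UMI sums and ratios treat UMIs as independent, and may be too narrow where UMIs gather in single barcodes, as globin UMIs did. Libraries held 91124 to 102883 barcodes and 25836175 (young sham) to 66767829 (aged I/R) UMIs, and the median barcode held 244 UMIs in young sham and 675 in aged I/R. Across libraries, 14666 barcode sequences occurred more than once, 7.44% to 7.92% of the barcodes of each. The 18 cardiomyocyte markers, as the check of the labelled tissue, took 9.53% to 11.7% of all UMIs. They took 9.47% to 11.5% of the UMIs of the median barcode, and the 10% of barcodes richest in them began at 11.8% to 13.8%.

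Hemoglobin is a tetramer of alpha and beta chains, each holding a heme. Developing red cells fill with globin RNA, lose their nucleus and reach the blood as reticulocytes, which still hold RNA for a short time. Alas2 is the erythroid form of the enzyme that starts heme synthesis. Bpgm makes the phosphate compound that lowers the oxygen affinity of hemoglobin and Mkrn1 is a ubiquitin ligase that many tissues make. The adult heart does not form red cells, so adult globin RNA in a ventricle is known mainly as a mark of blood. In material pooled over barcodes, fewer red cells and less RNA per red cell cannot be told apart.

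The alpha genes lie side by side on chromosome 11 (GRCm38, Hba-a1 at chr11:32283511-32284465 and Hba-a2 at chr11:32296489-32297298, plus strand), 12023 bases apart. The beta genes lie on the minus strand of chromosome 7 (Hbb-bt at chr7:103812524-103813996 and Hbb-bs at chr7:103826534-103828096). Each globin gene has 3 exons, and no other annotated gene overlaps them. The coding parts of Hba-a1 and Hba-a2 differ at 1 of 429 bases, and the 74 aligned bases after the stop codon are identical. Thus 3′ reads hardly separate them, and the split between these alpha genes is uncertain. Whether reads that fit both alpha genes were lost from the counts was not tested. Alpha sums, their shares of globin UMIs and comparisons of alpha with beta carry this limit too. The coding parts of Hbb-bs and Hbb-bt differ at 1 of 444 bases, but 33 of 128 aligned bases after the stop codon differ, which lets 3′ reads separate them. Alas2 (chrX:150547375-150570638, plus strand) overlaps Apex2 and Mir3620 on the other strand. Bpgm (chr6:34476207-34505613, plus strand) overlaps no gene, and Mkrn1 (chr6:39397804-39420462, minus strand) overlaps Gm10244 on the other strand.

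The 4 globin genes kept 1 order over the libraries, so the 250 bases before their RefSeq transcription starts are shown (GRCm38.p6, each 5′ to 3′ on the gene's strand) with that of Alas2, the erythroid heme gene. Capitals mark the letters TATAA of the TATA box, the letters CCAAT of the box of that name, the letters CACCC of the erythroid CACCC box, and the GATA motif written either as AGATAA or as TGATAA, all searched on both strands, where neighbouring matches can touch or overlap. The windows are chr11:32283422-32283671 (plus), chr7:103827929-103828178 (minus), chr7:103813924-103814173 (minus) and chrX:150547167-150547416 (plus).
Hba-a1: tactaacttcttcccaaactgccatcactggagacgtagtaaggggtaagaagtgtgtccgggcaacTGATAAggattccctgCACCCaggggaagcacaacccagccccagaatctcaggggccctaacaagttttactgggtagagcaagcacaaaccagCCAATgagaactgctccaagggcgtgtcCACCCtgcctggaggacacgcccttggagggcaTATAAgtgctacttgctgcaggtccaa
Hbb-bs: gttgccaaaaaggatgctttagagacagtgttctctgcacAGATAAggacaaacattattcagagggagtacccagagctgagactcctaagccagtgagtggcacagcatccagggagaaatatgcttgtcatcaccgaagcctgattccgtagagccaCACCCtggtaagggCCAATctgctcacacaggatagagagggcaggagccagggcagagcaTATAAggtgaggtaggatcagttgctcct
Hbb-bt: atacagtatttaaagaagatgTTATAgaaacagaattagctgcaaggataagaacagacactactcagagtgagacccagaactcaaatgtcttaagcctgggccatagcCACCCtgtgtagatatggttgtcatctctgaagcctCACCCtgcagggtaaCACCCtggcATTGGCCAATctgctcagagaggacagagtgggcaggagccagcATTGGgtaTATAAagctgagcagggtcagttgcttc
Alas2: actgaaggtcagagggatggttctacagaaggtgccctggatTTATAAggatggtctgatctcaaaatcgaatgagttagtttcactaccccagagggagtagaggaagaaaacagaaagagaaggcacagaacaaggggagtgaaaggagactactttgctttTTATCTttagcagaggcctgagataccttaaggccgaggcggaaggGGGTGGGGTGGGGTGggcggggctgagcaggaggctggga
The Hba-a2 window matched that of Hba-a1 over 247 bases without a difference, shifted by 3 bases. TATAA lay 27 (Hba-a1), 29 (Hbb-bs) and 28 (Hbb-bt) bases before the start, and CCAAT at 88, 76 and 75 bases. Of 32851 RefSeq promoter windows of the same length, 22.8% held TATAA, 33.8% CCAAT, 52.0% CACCC, and 16.6% AGATAA or TGATAA. The alpha and Hbb-bs windows held all 4 kinds, the Hbb-bt window did not hold AGATAA or TGATAA, and the Alas2 window did not hold CCAAT. Bpgm held CCAAT alone, and the Mkrn1 windows at its 2 annotated starts held no match or CCAAT and CACCC. These are matches of letters and say nothing about binding.

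As a share of all UMIs, the globin RNA was most abundant in young sham and least in aged I/R. Summed over the 4 genes it came to 2558 and 1948 counts per 1000000 UMIs (CPM) in the young hearts, sham and I/R respectively, and to 1685 and 1018 CPM in the aged hearts. These levels rest on 66086, 77295, 69672 and 67974 globin UMIs, although the library totals differed 2.58-fold. Each globin gene followed the same order, with intervals that did not overlap between neighbours. This order of levels was the reverse of the order of library totals. Mean globin UMIs per barcode were 0.717, 0.751, 0.694 and 0.746 and did not follow it. The part of depth in the order of levels was not tested.

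Hba-a1 stood at 612, 505, 413 and 231 CPM. Hba-a2 stood at 511, 442, 406 and 196 CPM. Both alpha genes were thus lowest in aged I/R, 2.65-fold and 2.60-fold below young sham. Hbb-bs, the more abundant beta globin, stood at 1225, 881, 770 and 531 CPM. Hbb-bt, the minor beta globin, stood at 210, 121, 96.1 and 59.5 CPM, the widest range of the 7 genes at 3.53-fold.

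The other 3 genes did not share that order. Alas2 stood at 8.98, 8.60, 6.43 and 6.87 CPM (232, 341, 266 and 459 UMIs), with overlapping intervals within each age. Bpgm stood at 13.1, 10.0, 12.6 and 10.5 CPM, higher in both sham libraries than in both I/R libraries. Mkrn1 stood at 21.6, 19.2, 21.6 and 23.4 CPM, and its intervals overlapped between all neighbours in the order. Alas2, Bpgm and Mkrn1 varied 1.40-fold, 1.30-fold and 1.22-fold between the highest and the lowest library.

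**Figure D1:**
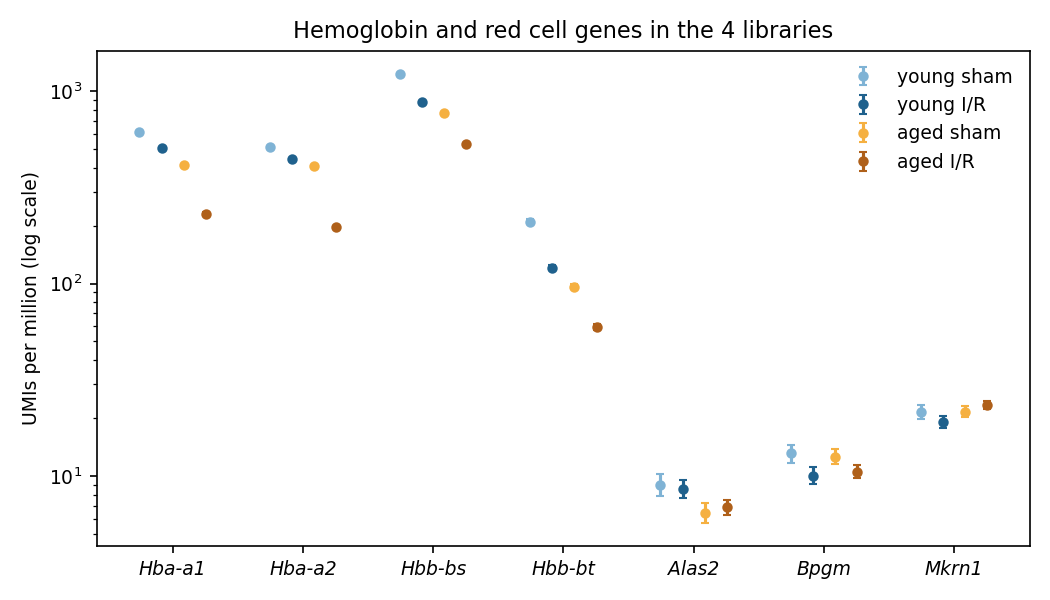
Level of each gene in the 4 libraries, as CPM on a log axis, with exact 95% Poisson intervals (counting error only). The 4 globin genes step down from young sham to aged I/R, while Alas2, Bpgm and Mkrn1 differ by at most 1.40-fold.

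I/R against sham was the question of the study within each age. In young mice the summed globins had a log2 ratio of -0.39 (95% interval -0.41 to -0.38), and in aged mice of -0.73 (-0.74 to -0.71). Of the 7 genes, 0 were at least 2-fold lower in young I/R, where 27.0% of all genes with at least 20 UMIs were, and 1 (Hba-a2) was in aged I/R, where 3.02% were. None was 2-fold higher, against 3.26% of genes in young and 5.65% in aged. The young libraries differed over all genes, with a median log2 ratio of -0.51, so relative to that median the young globins stood at 0.12, the opposite direction. The aged ratio kept its direction (-0.81 relative to a median of 0.085).

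The alpha and beta chains did not move alike between the I/R and sham libraries. In aged mice the alpha genes together had a log2 ratio of -0.94 (-0.96 to -0.92) and the beta genes of -0.55 (-0.57 to -0.53). In young mice the sizes were the other way round, -0.25 (-0.27 to -0.22) for alpha and -0.52 (-0.54 to -0.50) for beta. Alpha genes accordingly took 43.9% of globin UMIs in sham and 48.6% in I/R hearts of young mice, and 48.6% and 42.0% in those of aged mice. Both middle libraries lay above both extremes. Hbb-bt took 14.6%, 12.0%, 11.1% and 10.1% of the beta UMIs, so its share ran in the same order as the globin level. For Alas2 the I/R ratios were -0.06 (-0.31 to 0.18) in young and 0.10 (-0.13 to 0.32) in aged, and both intervals held 0. Relative to the median of all genes the young value becomes 0.45 (0.20 to 0.70), and that interval does not hold 0. Bpgm was lower in I/R at both ages, at -0.38 (-0.60 to -0.17) and -0.26 (-0.42 to -0.09), although the young value is 0.13 relative to the median of all genes. Mkrn1 was at -0.17 (-0.33 to -0.01) in young, which becomes 0.34 relative to that median, and at 0.11 (-0.0046 to 0.24) in aged.

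Aged against young was the second question. The summed globins had a log2 ratio of -0.60 (-0.62 to -0.59) between the sham libraries and of -0.94 (-0.95 to -0.92) between the I/R libraries. Of the 7 genes, 1 (Hbb-bt, -1.13) was at least 2-fold lower in aged sham, against 7.21% of all genes, and 3 (Hba-a1, Hba-a2 and Hbb-bt) were in aged I/R, against 1.58%. Without globin-rich barcodes the Hbb-bt value between sham libraries was -0.17 and the 3 values between I/R libraries were -0.78, -0.84 and -0.57, so that 0 of 7 passed 2-fold in either. Relative to the median of all genes 0 passed between sham and 4 between I/R libraries, Hbb-bs (-1.20) being the fourth. None was 2-fold higher, against 3.48% of genes between the sham and 21.3% between the I/R libraries. Over all genes the median log2 ratio was -0.14 between sham and 0.47 between I/R libraries, and relative to it the globins stood at -0.46 and -1.40. Alas2 was lower in both aged libraries, at -0.48 (-0.74 to -0.22) in sham and -0.32 (-0.53 to -0.12) in I/R. Bpgm was at -0.05 and 0.07 with intervals that held 0, but relative to the median the value between I/R libraries becomes -0.40 (-0.58 to -0.21). Mkrn1 was at 0.0039 between sham libraries and 0.29 (0.16 to 0.41) between I/R libraries, which becomes -0.18 relative to the median.

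These totals came from 2 kinds of barcode. A barcode is called globin-rich here when it held at least 10 globin UMIs. In young mice 760 of 92200 sham and 483 of 102883 I/R barcodes were, and in aged mice 148 of 100342 and 125 of 91124. Per 10000 barcodes that is 82.4 (76.7 to 88.5), 46.9 (42.9 to 51.3), 14.7 (12.5 to 17.3) and 13.7 (11.4 to 16.3). The young libraries held more, young I/R fewer than young sham, and the intervals of the aged libraries overlapped. If globin UMIs lay over barcodes in proportion to their UMIs, at the level of the other barcodes, fewer than 0.1 such barcode would be expected in each library (0.0061 to 0.0937). A fixed number of UMIs is easier to reach in a deep library, and the part of depth in these counts was not tested. With at least 5 globin UMIs the values were 108, 78.8, 47.8 and 58.6 per 10000, which puts aged I/R above aged sham. By a share of at least 10% of UMIs the barcodes numbered 416, 200, 47 and 25. That limit asks for more globin in deeper libraries, as the median globin-rich barcode held 254, 403, 444 and 762 other UMIs.

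Globin-rich barcodes held 51.4%, 31.8%, 11.4% and 10.5% of all globin UMIs. The median globin-rich barcode held 30, 30, 23.5 and 29 globin UMIs, and the highest 451, 306, 624 and 478. Over the 4 libraries the number of such barcodes varied more than the globin UMIs of the median one, which are not corrected for depth. Between aged sham and aged I/R the number hardly differed (14.7 and 13.7 per 10000, overlapping intervals). All globin-rich barcodes held both chains except 1 of young I/R that had no beta UMI. All 4 genes together occurred in 66.1%, 67.5%, 66.2% and 67.2% of them. Globin took 11.2%, 7.35%, 6.25% and 3.47% of the UMIs of the median globin-rich barcode, and 36.2% to 60.3% of the highest. Near the limit, 233, 328, 332 and 409 barcodes held 5 to 9 globin UMIs, where 17.6, 47.7, 113 and 165 would be expected in proportion to UMIs.

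**Figure D2:**
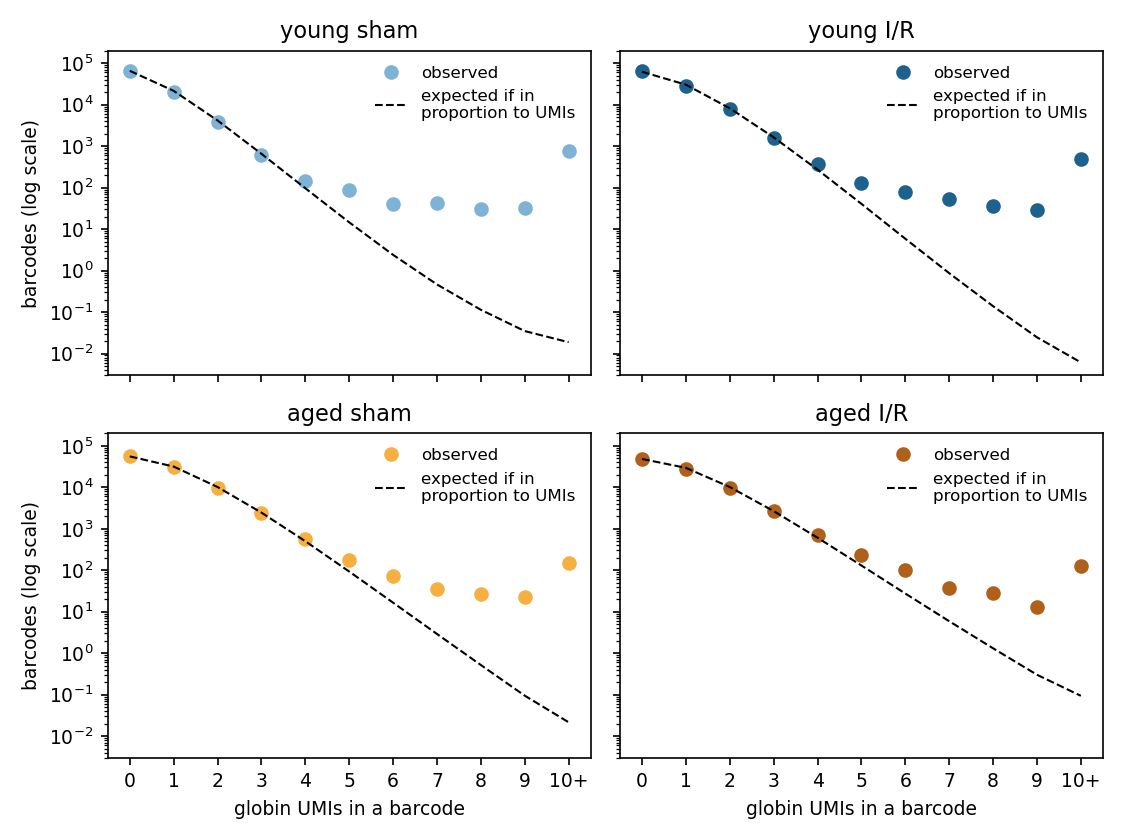
Number of barcodes (log axis) by globin UMIs in the barcode, for each library, with the number expected if globin UMIs lay in proportion to the UMIs of each barcode (dashed). Points follow the line up to 3 UMIs and leave it from 5 UMIs, ending in 760, 483, 148 and 125 barcodes with 10 or more.

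Outside those barcodes the order of the libraries was different. Globins stood there at 1255 and 1337 CPM in young and at 1495 and 913 CPM in aged hearts, sham before I/R. Aged sham was the highest of these and aged I/R was again the lowest. Aged over young sham then had a log2 ratio of 0.25 and that of young I/R over sham 0.092, each opposite to the value over all barcodes. Aged I/R over sham was at -0.71 and aged over young I/R at -0.55. The direction of young sham against young I/R and against aged sham thus changed when globin-rich barcodes were left out. These barcodes were chosen by globin itself. Leaving them out took 51.4% of the globin UMIs of young sham, and 31.8%, 11.4% and 10.5% elsewhere, which lowers young sham most by construction. With no barcode left out, scaling by the median of all genes also turned young I/R over sham to 0.12. The ratio of aged I/R to aged sham hardly moved without globin-rich barcodes, and that of aged to young I/R shrank from -0.94 to -0.55.

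**Figure D3:**
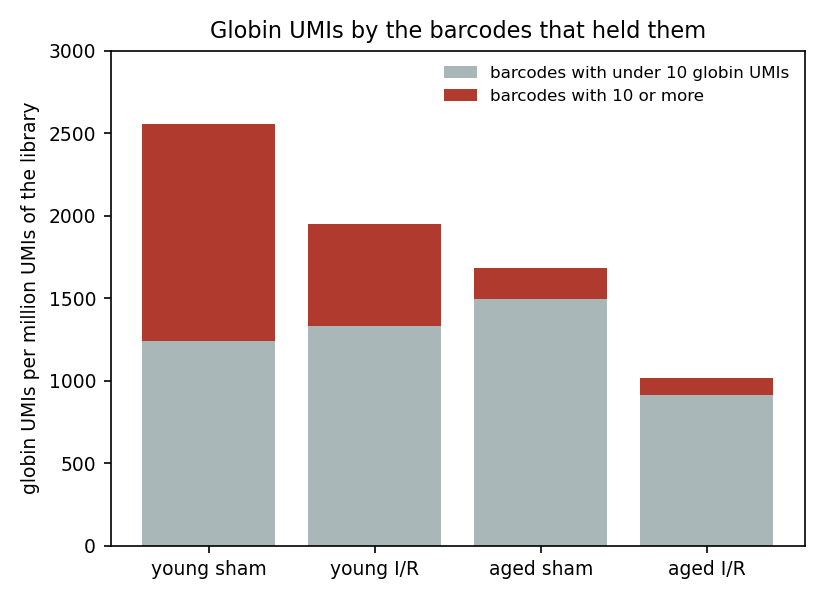
Globin level of each library in CPM, split by the barcodes that held them (stacked bars from 0). The part in barcodes with 10 or more globin UMIs shrinks from young sham to aged I/R, while the other part is highest in aged sham.

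Most other barcodes held few globin UMIs, although more of them held 5 to 9 than in proportion to UMIs. Globin UMIs of 1 to 2 occurred in 24374, 36722, 40657 and 37859 barcodes, 0.95, 0.95, 0.97 and 0.96 of the number expected in proportion to UMIs. At least 1 globin UMI was found in 28.3%, 38.3%, 43.9% and 45.9% of barcodes, an order that follows depth. With each barcode thinned to 200 UMIs, and shallower barcodes left out (28.1%, 4.48%, 4.41% and 0% of the libraries), the shares were 22.1% (21.8 to 22.5), 23.3% (23.0 to 23.5), 25.8% (25.6 to 26.1) and 16.9% (16.6 to 17.1).

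Barcodes with markers of heart wall cells gave shares near that of their library. In young sham, thinned barcodes with at least 2 endothelial marker genes showed globin in 22.0% (20.9 to 23.1), with fibroblast markers in 20.8% (19.0 to 22.7), with macrophage markers in 22.3% (18.6 to 26.5), and with none of these classes in 22.2% (21.8 to 22.5). In aged I/R the same classes gave 16.6%, 16.3%, 16.4% and 17.05%, and the tenth of barcodes richest in cardiomyocyte markers 15.3% (14.5 to 16.04), the latter with an interval below that of barcodes with none of the classes (16.7 to 17.4). Young I/R ran from 22.8% to 25.9% and aged sham from 25.1% to 25.9%. The classes rest on marker counts alone, and whether their globin UMIs are background or expression was not tested. Median depths of the classes were 239 to 321 UMIs in young sham and 619 to 849 in aged I/R.

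**Figure D4:**
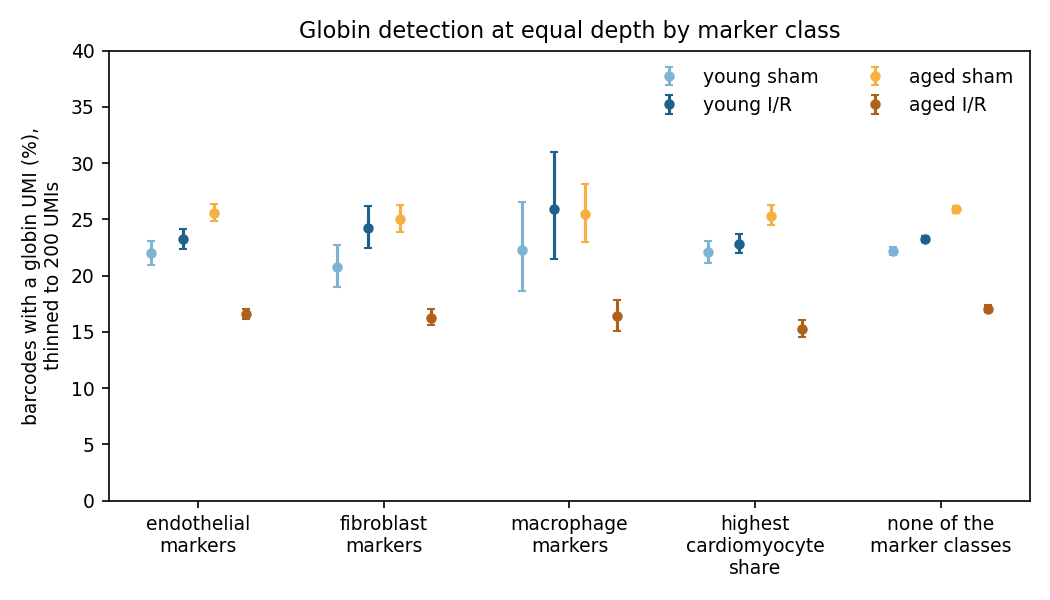
Share of barcodes with a globin UMI after thinning to 200 UMIs, by marker class and library, with exact binomial 95% intervals (counting error only). The classes of young sham lie at 20.8% to 22.3%, and aged I/R is lowest in each class.

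The mix of chains differed between the kinds of barcode. Alpha genes took 41.8%, 43.5%, 39.7% and 35.8% of the globin UMIs of globin-rich barcodes, and 46.1%, 50.9%, 49.8% and 42.7% of those of the other barcodes. The other barcodes were higher in alpha in 4 of 4 libraries, with intervals that did not overlap. Among the other barcodes the share hardly depended on the marker class: 45.9%, 45.8% and 47.0% in the endothelial, fibroblast and cardiomyocyte classes of young sham, and 43.1%, 43.2% and 41.9% in aged I/R. Hba-a1 took 55.8%, 55.6%, 56.0% and 60.4% of the alpha UMIs of globin-rich barcodes and 53.2%, 52.4%, 49.9% and 53.4% elsewhere. The near-identical alpha genes leave this split uncertain, and a loss of reads that fit both would lower the alpha shares.

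Alas2, Bpgm and Mkrn1 tracked the globins in barcodes that were chosen on globin alone. Their levels in globin-rich barcodes were set against those in the other barcodes of the same library, with globin UMIs left out of both totals. Alas2 was 71.5-fold higher (54.2 to 93.9) in young sham, with 88 of its 232 UMIs in 760 barcodes. It was 66.0-fold higher (51.1 to 84.6) in young I/R, 58.2-fold (36.2 to 89.4) in aged sham and 155-fold (121 to 196) in aged I/R. Bpgm was 18.0-fold, 15.96-fold, 14.5-fold and 38.8-fold higher, and Mkrn1 9.55-fold, 5.83-fold, 8.37-fold and 18.2-fold. All 12 intervals lay above 1, and aged I/R gave the highest value for each gene. The shares of UMIs inside globin-rich barcodes were nevertheless small for Mkrn1 (1.34% to 7.54%), larger for Bpgm (2.30% to 13.3%) and largest for Alas2 (8.65% to 37.9%), so that most Mkrn1 and Bpgm RNA lay elsewhere.

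Aged I/R also stood apart when the 3 genes were set against the globins of the same barcodes. Per 1000 globin UMIs, Alas2 gave 2.59 (2.08 to 3.19), 3.50 (2.80 to 4.33), 2.89 (1.83 to 4.34) and 12.2 (9.81 to 15.1) UMIs. Bpgm gave 1.32, 1.22, 1.51 and 5.49, and Mkrn1 1.24, 0.90, 1.51 and 5.91. The other barcodes of the library would lead to 0.563, 1.01 and 2.30 UMIs of Alas2, Bpgm and Mkrn1 in the aged I/R globin-rich barcodes by depth alone, where 87, 39 and 42 were counted. Alas2 was found in 10.4%, 14.7%, 12.2% and 35.2% of globin-rich barcodes. The highest Alas2 barcode of aged I/R held 10 Alas2, 5 Bpgm and 8 Mkrn1 UMIs with 475 globin UMIs, and without it the 3 values were 11.6, 5.13 and 5.13. Aged I/R was sequenced into more UMIs per barcode than the rest (a median of 834 in its globin-rich barcodes, against 300, 455 and 493), and the part of depth in this result was not tested.

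**Figure D5:**
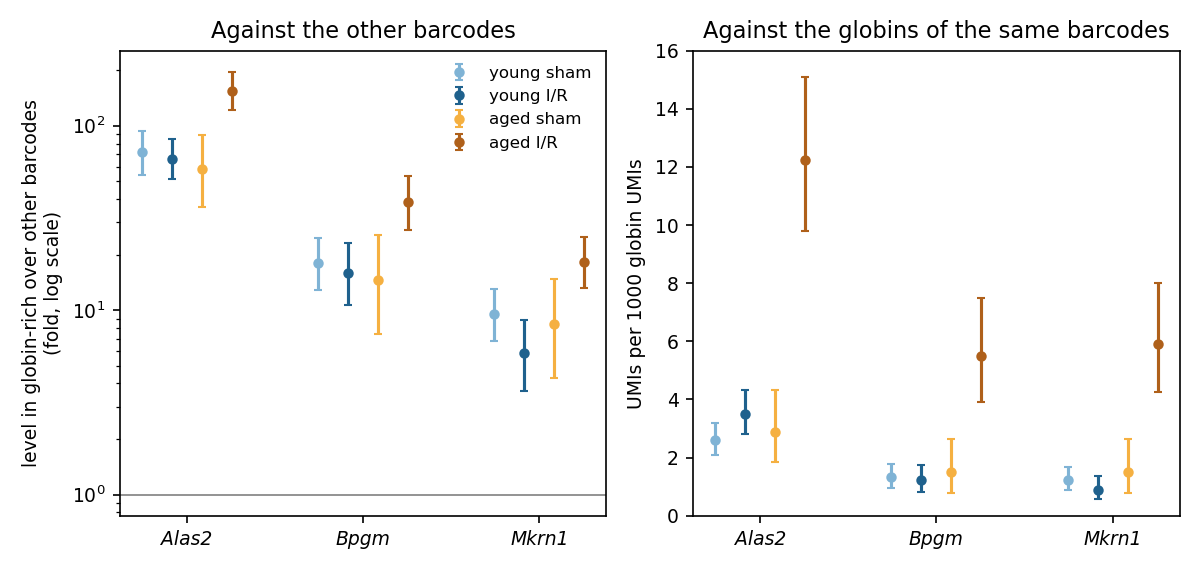
Left, level of Alas2, Bpgm and Mkrn1 in globin-rich over other barcodes (fold, log axis, line at 1). Right, their UMIs per 1000 globin UMIs in globin-rich barcodes. Points are libraries with exact 95% intervals (counting error only), and aged I/R is highest for each gene in both panels.

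Of 695 genes with at least 10 UMIs in the globin-rich barcodes of every library, Alas2, Bpgm and Mkrn1 ranked 1, 2 and 3 by the lowest of the 4 folds over barcodes without globin. These 3 genes were members of the group, which was chosen with earlier results of these data known. Their lowest folds were 66.1, 14.99 and 5.73, while the median gene of each library lay between 0.99 and 1.06. Next came Gpx1, a peroxidase that is abundant in red cells, at 2.10 to 4.15, and Ftl1, the ferritin light chain, at 1.95 to 2.28. Epb41, which encodes the membrane skeleton protein 4.1, was at 1.40 to 2.99. Oaz1, Slc25a39, Pabpc1 and Sec61g followed with lowest folds of 1.34, 1.30, 1.26 and 1.19.

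Other red cell genes were sparse. The embryonic and minor globins (6 genes) gave 5, 5, 3 and 0 UMIs in all, mostly Hbq1a, and 0 UMIs in aged I/R allows at most 0.0449 CPM. The anion exchanger Slc4a1 gave 17, 26, 18 and 30 UMIs, far below the 232 to 459 of Alas2. The erythroid transcription factors Gata1 and Klf1 gave 1, 5, 0 and 4 and 0, 2, 4 and 5 UMIs. The ubiquitin enzyme Ube2l6 gave 146, 160, 316 and 277 UMIs, of which 33, 23, 8 and 27 lay in globin-rich barcodes. These 4 genes were named after their values were seen.

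Lists of genes that red cells share with other cells tracked the globins weakly. The late erythroid list (22 genes in the table, led by Bsg, Prdx2, Cat and Fech) was 1.77-fold, 1.52-fold, 1.28-fold and 1.95-fold higher in globin-rich than in other barcodes, with intervals above 1. Membrane skeleton genes (15, led by Tmod1, Ank1, Epb41 and Sptb, which heart muscle also makes) were at 1.24, 1.32, 1.36 and 1.24. Heme synthesis genes other than Alas2 (8, led by Fech and Alas1) were at 1.24, 1.23, 0.86 and 1.44, and the regulators (9, led by Ldb1 and Lmo2) at 1.02, 0.87, 0.48 and 1.71, with 7 of these 8 intervals holding 1. The 18 cardiomyocyte markers, led by Ttn, Myh6, Mb and Tpm1, were at 0.99, 0.98, 0.98 and 1.01 times the rest, and the interval of young I/R lay below 1 (0.97 to 0.997).

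Marker lists of other cells were also summed. Endothelial genes (15, led by Egfl7) were at 0.97 to 1.18, fibroblast genes (12, led by Dcn) at 0.77 to 1.21 and macrophage genes (12, led by C1qa) at 0.71 to 1.10. Platelet genes (10, led by Pf4) gave 2 or 3 UMIs in the globin-rich barcodes of each library. Lymphocyte genes (10) gave 0 to 3, and neutrophil genes (10, led by S100a9) 5 to 19. Intervals lay above 1 for endothelial genes in aged I/R (1.18, 1.02 to 1.36), fibroblast genes in young I/R (1.21, 1.02 to 1.43), lymphocyte genes in young I/R (6.31 on 3 UMIs) and neutrophil genes in aged sham (3.15 on 5 UMIs). The interval for fibroblast genes in aged I/R lay below 1 (0.77, 0.60 to 0.97).

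Between conditions the blood lists differed among themselves. Summed neutrophil markers stood at 14.3, 97.7, 23.7 and 97.5 CPM, with 6 of 6 counted genes at least 2-fold higher in I/R at both ages, against 3.26% and 5.65% of all genes. Lymphocyte markers stood at 8.13, 2.42, 11.7 and 6.63 CPM, with 5 of 6 and 4 of 10 counted genes 2-fold lower in I/R and 0 higher, against 27.0% and 3.02% of all genes lower. Platelet markers stood at 20.8, 25.3, 28.0 and 38.3 CPM, with 2 of 5 and 3 of 9 counted genes 2-fold higher in I/R and 0 lower. By total UMIs the lymphocyte markers and the globins were thus lower, and the neutrophil and platelet markers higher, in I/R at both ages. The counts that follow stand beside 27.0% of all genes 2-fold lower and 3.26% higher in young I/R, and 3.02% and 5.65% in aged I/R. Heme synthesis genes numbered 0 of 8 past 2-fold in any comparison. Of the late erythroid genes, 2 of 19 counted were 2-fold lower and 0 higher in young I/R, and 1 and 0 in aged I/R, with list medians of -0.49 and -0.47 beside medians of -0.51 and 0.085 for all genes. Membrane skeleton genes had 2 of 10 and 2 of 12 lower and 0 higher. Regulators had 3 of 6 lower and 1 higher in young I/R and 0 of 6 in aged I/R.

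Genes that take up and break down hemoglobin and heme were counted as the other side of the pathway (12 genes, led by Fth1, Ftl1, Lrp1 and Hmox2). In I/R, 2 of 12 were 2-fold higher in young and 3 of 12 in aged mice, with 0 and 1 lower, against 3.26% and 5.65% of all genes higher and 27.0% and 3.02% lower. Hmox1, the inducible heme oxygenase, stood at 2.28, 28.2, 2.76 and 7.13 CPM (59, 1117, 114 and 476 UMIs). Haptoglobin (Hp), the plasma protein that binds free hemoglobin, stood at 1.43, 7.11, 5.95 and 12.2 CPM. Both were named after their values were seen. Each was higher in I/R than in sham at both ages, and Hmox1 had few UMIs in globin-rich barcodes (1, 7, 0 and 0).

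Pairs of globins in a barcode were compared with chance at equal depth, by thinning each barcode to 200 UMIs. Barcodes with an alpha and a beta UMI were 1.71 (1.63 to 1.79), 1.37 (1.32 to 1.43), 1.16 (1.11 to 1.21) and 1.32 (1.24 to 1.41) times as frequent as the product of both shares gives. Of the 6 globin pairs, all had intervals above 1 in each library, at ratios of 1.21 to 4.83. Without globin-rich barcodes the alpha and beta ratio was 1.26, 1.17, 1.11 and 1.21, and all of these intervals still lay above 1. Some excess pairing thus remained among barcodes with few globin UMIs, which include those with 5 to 9.

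Alas2 paired with the summed globins at 2.38 (1.84 to 3.03), 1.90 (1.49 to 2.40), 1.49 (1.09 to 1.98) and 2.06 (1.48 to 2.78) times chance. Without globin-rich barcodes it stood at 1.35, 1.34, 1.35 and 1.46, and all 4 intervals held 1. Bpgm paired at 1.62, 1.17, 1.08 and 1.25, with an interval above 1 in young sham alone. Mkrn1 paired at 1.17, 1.06, 0.98 and 1.10 with intervals that held 1. Among themselves Alas2, Bpgm and Mkrn1 shared few barcodes (2 to 29 a pair). Intervals lay above 1 for 3, 1, 0 and 2 of these 3 pairs. The ratios ran from 5.65 to 10.6 in young sham and from 0.63 to 1.19 in aged sham. Without globin-rich barcodes 0 of 3 intervals lay above 1 in each library.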

How the data were processed

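Reads were aligned by the authors to the mouse genome (mm10) with Cell Ranger 6.0.2, and the deposited filtered matrices hold raw UMI counts per gene and barcode. The study's later filters on barcodes and its clusters were not used, and no doublets were removed. UMIs were summed over all barcodes of each library and given as counts per 1000000 UMIs (CPM). With 1 library per condition no test was run. Intervals are exact Poisson (sums), Clopper-Pearson (shares) and conditional (ratios) at 95%, and cover counting error only. Their coverage was checked on simulated Poisson counts only, in which UMIs are independent. Globin UMIs gathered in single barcodes, so the check does not cover the intervals of globin sums and ratios, which may be too narrow. Background shares count genes with at least 20 UMIs over the 2 libraries at or past a log2 ratio of 1. Expected pairs and shares after thinning to 200 UMIs were computed exactly (hypergeometric). Marker classes needed at least 2 genes of a list. A cardiomyocyte share of at least 20% of UMIs found 1 to 41 barcodes, so the 10% of barcodes with the highest share were used in its place, chosen after seeing the data. Positions and transcripts came from GENCODE, promoters from RefSeq. All 7 members, the 4 most abundant genes of each list and the 10 genes most like the globins could be named, and exceptions are marked. The members and the 13 lists were chosen with earlier results of these data known. Python 3.11.15 with numpy 2.4.6, scipy 1.17.1, pandas 2.3.3, Biopython 1.88 and matplotlib 3.10.9 was used. Alternatives covered scaling, barcode filters, thinning depth and gene filters. A few genes of the lists are not reported here by name.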

Additional observations from a re-analysis of the deposited data

How the results depend on the processing

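No paired analysis was possible because each condition was 1 library and the labels carry no replicate numbers, and for the same reason no replicate could be left out. For the summed globins, young I/R over sham had a log2 ratio of 0.12 with scaling by the median of all genes, -0.15 with a total without Gm42418, mitochondrial and globin genes, -0.096 in barcodes with at least 200 genes, -0.035 without barcodes of at least 10% globin and 0.092 without globin-rich barcodes (an alternative chosen after seeing the data). In the same order without the 200-gene value, which lay inside the counting interval, aged I/R over sham was -0.81, -0.84, -0.69 and -0.71. Aged over young sham was -0.46, -0.45, -0.33, 0.027 and 0.25 under the 5 settings, and aged over young I/R -1.40, -1.14, -0.95, -0.63 and -0.55. Leaving out shared barcode sequences changed no direction.

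Single genes whose interval did not hold 0 changed direction as follows. With scaling by the median, young I/R over sham became 0.23 for Hba-a1, 0.30 for Hba-a2, 0.037 for Hbb-bs, 0.13 for Bpgm and 0.34 for Mkrn1, and aged over young I/R became -0.18 for Mkrn1. With the reduced total, young I/R over sham became 0.028 for Hba-a2 and 0.070 for Mkrn1. In barcodes with 200 genes it became 0.0088 for Hba-a1 and 0.085 for Hba-a2, without barcodes of 10% globin 0.089 and 0.15, and without globin-rich barcodes 0.21 and 0.26. Aged over young sham became 0.043 for Hba-a1 and 0.26 for Hba-a2 without barcodes of 10% globin, and 0.27 for Hba-a1, 0.46 for Hba-a2, 0.20 for Hbb-bs and 0.065 for Alas2 without globin-rich barcodes. Ratios whose interval held 0 changed sign in 15 cases, in 2 of them with an interval clear of 0, both with scaling by the median: Alas2 in young I/R over sham (0.45) and Bpgm in aged over young I/R (-0.40). The 3 genes 2-fold lower in aged over young I/R became 0 without barcodes of 10% globin or without globin-rich barcodes, and 4 with scaling by the median. Hbb-bt in aged over young sham stayed 2-fold lower when shared barcode sequences were left out, and under no other setting (-0.99, -0.97, -0.80, -0.33 and -0.17).

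With genes of at least 1 UMI, the shares of all genes 2-fold higher were 13.9% (young I/R over sham), 15.2% (aged I/R over sham) and 15.9% (aged over young sham), and 2-fold lower 11.4% (aged I/R over sham), 13.8% (between sham libraries) and 9.25% (aged over young I/R). With at least 100 UMIs they were 3.58% and 1.57% higher (aged I/R over sham, aged over young sham), and 1.501%, 4.49% and 0.863% lower (aged I/R over sham, then aged over young in sham and in I/R). With at least 5 globin UMIs, 78.8, 47.8 and 58.6 per 10000 barcodes counted in young I/R, then aged sham, then aged I/R, which puts aged I/R above aged sham.

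Thinned to 300 UMIs, globin was found in 28.3%, 32.3%, 35.5% and 24.0% of barcodes (young sham and young I/R, then aged sham and aged I/R), and the alpha and beta pair ratio was 1.55, 1.22, 1.09 and 1.23. In bands of 25 UMIs it was 1.38, 1.14, 1.06 and 1.10. Without barcodes of 10% globin it was 1.49 in young sham and 1.29 in young I/R, and without globin-rich barcodes 1.26, 1.17, 1.11 and 1.21. Depth limits Alas2, Bpgm and Mkrn1 most, which rest on 232 to 1563 UMIs a library. Where a setting drops the globin-rich barcodes, it removes globin UMIs by construction, most of all in young sham. The cause of the changes was not tested under any setting.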

Other observations

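Outside globin-rich barcodes, the globin level was lower in deeper barcodes of each library. From the shallowest 25% to the deepest 25% of barcodes it went from 1495 to 1047 CPM in young sham, from 1402 to 1262 in young I/R, from 1612 to 1382 in aged sham and from 1006 to 826 in aged I/R. All such groups of aged I/R lay below all of the other 3 libraries.

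Globin-rich barcodes were fewer in the cardiomyocyte class than in all barcodes, although in aged I/R the interval held the value of all barcodes. In the tenth of barcodes richest in cardiomyocyte markers they numbered 23.8 (14.9 to 36.1), 11.7 (6.02 to 20.4), 4.98 (1.62 to 11.6) and 7.68 (3.09 to 15.8) per 10000 (young sham and young I/R, then aged sham and aged I/R), against 82.4, 46.9, 14.7 and 13.7 in all barcodes. Globin UMIs count in the total that this share divides by, which lowers it in globin-rich barcodes. With globin UMIs left out, the cardiomyocyte markers in globin-rich barcodes were at 0.99, 0.98, 0.98 and 1.01 times the rest. Barcodes with endothelial markers held 104, 49.4, 15.7 and 18.3 per 10000, and without Aqp1, a water channel that red cells also make, 104, 48.7, 16.6 and 19.0.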
